A study of Mus musculus with 4 samples.

Results

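HSL-null and wild-type livers were compared on a high-fat diet (FD) by setting 1 array of an HSL-null pool against 1 array of a wild-type pool. Both are among 4 Affymetrix MG_U74Av2 arrays, a short-oligonucleotide platform for mouse messenger RNA that reads most genes with a single probe set. The other 2 arrays, wild type and HSL-null on a normal diet (ND), are used here only to show where a signal stood without the FD. All mice were female, fed when killed, and 8 months old. FD supplied 58% and ND 11% of energy as fat, and each was given for 6 months. Wild type FD was a pool of 6 livers and HSL-null FD a pool of 4, while wild type ND and HSL-null ND were pools of 6 each. The HSL-null mice lacked hormone-sensitive lipase, the product of Lipe, in every tissue, so effects that begin in the liver and in other organs cannot be told apart. Each group was 1 pool on 1 array (n = 1), so no difference was tested, variation between mice was not measured, and "higher" or "lower" is said of these pools only. The probe sets were chosen as those that are no array controls and are annotated to 1 gene. There were 10833 of them among 12422, and they read 8251 genes. After a filter on dim probe sets (mean of the 4 arrays at least 26.9), 4829 genes were kept, each through its brightest probe set, and ratios are given for these.

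Hormone-sensitive lipase releases fatty acids from stored acylglycerols and hydrolyses cholesteryl and retinyl esters, mainly in adipose tissue and steroid-producing glands. The liver takes up the fatty acids that adipose tissue releases and burns, exports or stores them. It also makes cholesterol through a pathway whose genes are driven by the sterol-sensing factor SREBP2 when cell sterol is low. The series' design names the effect of a general loss of the enzyme on liver metabolism as its subject.

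The 2% trimmed mean was 100.085 to 100.094 on the 4 arrays, so they share a common scale and overall signal is no check of their likeness. The median signal of the 12422 probe sets was lowest in wild type FD (25.2) and highest in HSL-null FD (28.3). On the 4 arrays 24.1 to 26.0% of probe sets lay at or under a floor of 6.1, to which lower signals were raised. The 3′ over 5′ signal of beta-actin, a sign of RNA integrity, was 1.49 in wild type FD and 1.32 in HSL-null FD, that of Gapdh was 0.861 and 0.838, and that of pyruvate carboxylase was 2.72 and 1.99. The part of RNA integrity in the ratios was not tested. Poly-A spikes, bacterial transcripts that serve as controls, had a geometric mean of 2179 in wild type FD and 1510 in HSL-null FD. Hybridisation spikes had 308 and 328, and the part of both kinds of spike in the results was not tested. All arrays came from 1 chip lot and were scanned on 1 day. Solution lots were split by genotype, and their effects cannot be told apart. The hepatocyte markers had a summed signal of 43809 in wild type FD and 44768 in HSL-null FD, with 0 of 17 at the floor, as the label liver implies. The RNA was from whole tissue, so fewer cells of a type and less RNA per cell cannot be told apart.

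Lipe itself had signals of 28.0 in wild type ND, 11.9 in HSL-null ND, 34.0 in wild type FD and 15.9 in HSL-null FD. Both HSL-null signals lay below both wild-type signals, and on FD the gene was 2.14-fold lower in HSL-null liver, a log2 ratio of -1.10. Lipe is dim in liver and lies under the filter. The sources used here do not say whether its probes fall inside the deleted stretch, so the label is checked only in part.

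On FD, 90 genes were at least 2-fold higher in HSL-null liver (1.86% of 4829) and 46 were at least 2-fold lower (0.953%), together 2.82%. On ND, with 2 other arrays, 24 were higher (0.497%) and 52 lower (1.08%), together 1.57%. Genes above a log2 ratio of 0 on FD made up 58.3% of all, genes below 0 made up 41.5%, and the median was 0.067. On ND these shares were 47.3% and 52.6%. The SD of the log2 ratio over all genes was 0.45 on FD and 0.34 on ND. The only measure of error available is how far 2 probe sets of a gene disagree. Over the 687 genes that kept at least 2, the SD of that disagreement was 0.310 per probe set (the SD of the difference over √2), and it leaves out any error that all probe sets of an array share.

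The balance of higher and lower genes depended on signal and on scaling. Genes were put in 4 equal groups by mean signal. In the dimmest group the median log2 ratio was 0.17, with 51 genes 2-fold higher and 16 lower. In the brightest group it was -0.043, with 7 higher and 11 lower. Higher genes made up 66.2% of the 136 calls as deposited. They made up 51.6% after quantile normalization (63 higher and 59 lower), 48.7% after cyclic loess (57 and 60) and 41.5% with arrays at a common median (51 and 72). That last scaling moved the median of all genes by -0.17, and every list median below can be read against that shift. Each list count below can likewise be read against the shares of all genes. These were 58.3% above 0, 41.5% below 0, 1.86% 2-fold higher and 0.953% 2-fold lower.

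**Figure D1:**
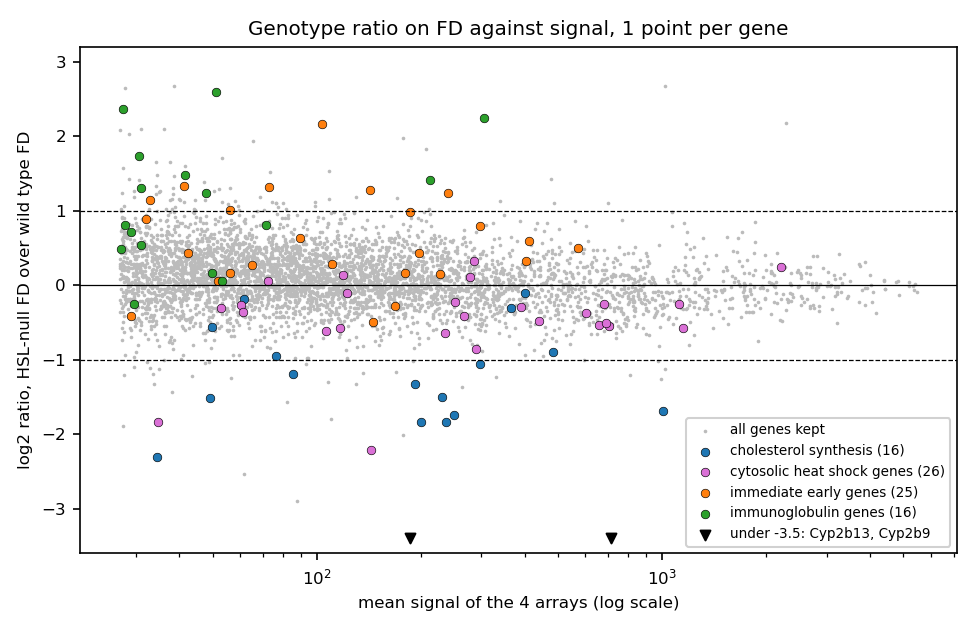
Each point is a gene: its mean signal on the 4 arrays (x, log scale) and its log2 ratio of HSL-null FD over wild type FD (y), with dashed lines at 2-fold. Cholesterol synthesis genes (16, blue) all lie below 0, most immediate early genes (22 of 25, orange) and immunoglobulin genes (15 of 16, green) lie above, and Cyp2b9 and Cyp2b13 are drawn as triangles because they lie under the axis.

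**Figure D2:**
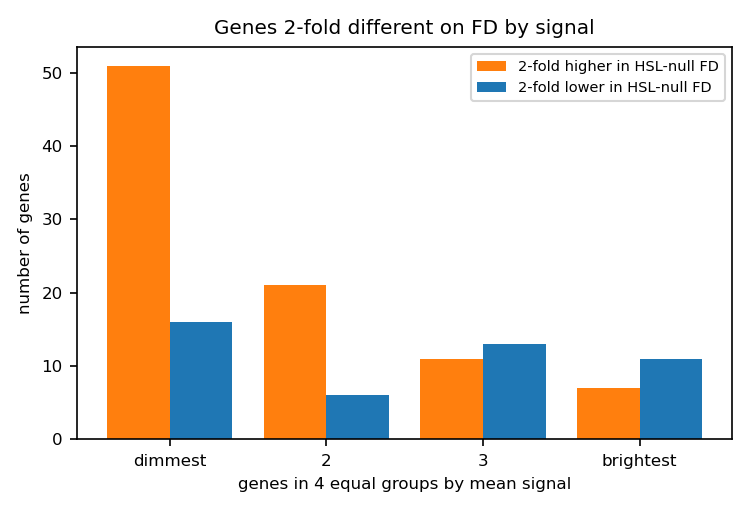
Bars count the genes at least 2-fold higher (orange) or lower (blue) in HSL-null FD in 4 equal groups of the 4829 genes, ordered by mean signal (x). Higher genes go from 51 in the dimmest group to 7 in the brightest, while lower genes number 16, 6, 13 and 11.

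Which array stood apart was also described. Among the 90 higher genes, wild type FD was the lowest of the 4 arrays for 83 (92.2%) and HSL-null FD the highest for 60 (66.7%). Over all genes these shares were 36.0% and 29.0%. Among the 46 lower genes, HSL-null FD was the lowest array for 41 (89.1%) and wild type FD the highest for 36 (78.3%), against 20% and 25.4% of all genes. These genes were picked by the same 2 arrays, so the shares are only a description.

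Cholesterol synthesis genes were lower in HSL-null FD as a group. All 16 of 21 that were kept lay below 0, 10 of them at least 2-fold, and their median log2 ratio was -1.26 against 0.067 for all genes. On ND the median of the same genes was 0.33, with 12 of 16 above 0. Wild type FD was the highest of the 4 arrays for 11 of 16, and HSL-null FD was the lowest for 13. The ratio of FD to ND, which shares arrays with the FD genotype ratio, had a median of 0.57 in wild type and -0.96 in HSL-null liver.

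The early steps make mevalonate and turn it into isoprenoid units. Hmgcs1, which makes the precursor of mevalonate, had signals of 267 in wild type ND, 463 in HSL-null ND, 452 in wild type FD and 422 in HSL-null FD. It was the member that differed least on FD, with a log2 ratio of -0.10. Mvk, mevalonate kinase, differed little as well, at 67.3 and 59.4 in wild type and HSL-null FD. Mvd, which decarboxylates activated mevalonate, had signals of 25.2 in wild type ND, 42.5 in HSL-null ND, 58.1 in wild type FD and 11.8 in HSL-null FD. That made it 4.92-fold lower on FD, the lowest ratio of the list, from the dim end of the scale. Idi1, the isomerase of the isoprenoid units, had signals of 249 in wild type ND, 228 in HSL-null ND, 367 in wild type FD and 102 in HSL-null FD, a log2 ratio of -1.84 on FD. The HSL-null FD signal of Idi1 stood alone below the other 3.

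The middle steps build squalene and lanosterol. Fdps, farnesyl diphosphate synthase, had signals of 1133 in wild type ND, 1312 in HSL-null ND, 1211 in wild type FD and 375 in HSL-null FD and was 3.23-fold lower on FD. Its second probe set gave 794 and 272 and a log2 ratio of -1.54. Sqle, squalene epoxidase, had signals of 186 in wild type ND, 283 in HSL-null ND, 258 in wild type FD and 72.9 in HSL-null FD, 3.54-fold lower on FD. For both genes the HSL-null ND signal was above wild type ND, so the order of the genotypes was opposite on the 2 diets. Cyp51, the lanosterol demethylase, had signals of 32.0 in wild type ND, 55.9 in HSL-null ND, 80.5 in wild type FD and 28.1 in HSL-null FD and a log2 ratio of -1.52.

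The late steps trim lanosterol to cholesterol. Tm7sf2, a sterol reductase, had signals of 254 in wild type ND, 253 in HSL-null ND, 378 in wild type FD and 113 in HSL-null FD, a log2 ratio of -1.74, with -1.08 from its second probe set. Nsdhl, a sterol dehydrogenase, had 198 in wild type ND, 257 in HSL-null ND, 343 in wild type FD and 121 in HSL-null FD, a log2 ratio of -1.50, with -1.55 from its second probe set. Msmo1, a sterol oxidase, had 118 in wild type ND, 185 in HSL-null ND, 336 in wild type FD and 133 in HSL-null FD, a log2 ratio of -1.33. In all 3 the wild type FD signal was the highest of the 4, and the HSL-null FD signal was the lowest in Tm7sf2 and Nsdhl and near wild type ND in Msmo1. Hmgcs1 and Mvk were named here after their values were seen.

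Because these genes moved together, their promoters are shown. Windows of 250 bases before to 50 after the gene start came from RefSeq (GRCm38.p6), which held 13 of the 16 genes, and Fdft1, Fdps and Sqle had no entry. The sterol element TCACNCCAC, a form of the site that SREBP factors bind, was searched on both strands. It was present in 1 of the 13 genes, Hmgcs1, and in 1.44% of the 27025 genes with a window (1.24% of windows). The CCAAT box (letters CCAAT, both strands), bound by the factor NF-Y that works beside SREBP factors, was searched after that result was seen. It was present in 13 of 13 genes and in 41.06% of all genes (37.41% of windows). Capitals mark both motifs below. Hmgcs1 (chr13:119690101-119690400, plus strand) holds the sterol element at 137 bases before the start. It differed least on FD, with a log2 ratio of -0.10. Mvd (chr8:122443373-122443672, minus strand), Idi1 (chr13:8885356-8885655, plus strand), Cyp51 (chr5:4104648-4104947, minus strand) and Tm7sf2 (chr19:6067801-6068100, minus strand) are the 4 lowest ratios among genes with a window.

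Hmgcs1: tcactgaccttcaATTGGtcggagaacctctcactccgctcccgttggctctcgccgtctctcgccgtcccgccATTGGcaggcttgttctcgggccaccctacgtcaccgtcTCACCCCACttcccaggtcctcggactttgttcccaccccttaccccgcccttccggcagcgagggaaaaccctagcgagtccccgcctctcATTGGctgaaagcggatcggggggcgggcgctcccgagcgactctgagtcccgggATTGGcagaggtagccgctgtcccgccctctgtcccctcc

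Mvd: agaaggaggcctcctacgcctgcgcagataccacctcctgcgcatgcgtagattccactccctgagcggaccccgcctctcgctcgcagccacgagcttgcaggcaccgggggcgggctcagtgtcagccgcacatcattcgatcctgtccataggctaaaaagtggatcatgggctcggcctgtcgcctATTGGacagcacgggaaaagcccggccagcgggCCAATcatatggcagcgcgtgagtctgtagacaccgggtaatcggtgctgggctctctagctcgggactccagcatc

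Idi1: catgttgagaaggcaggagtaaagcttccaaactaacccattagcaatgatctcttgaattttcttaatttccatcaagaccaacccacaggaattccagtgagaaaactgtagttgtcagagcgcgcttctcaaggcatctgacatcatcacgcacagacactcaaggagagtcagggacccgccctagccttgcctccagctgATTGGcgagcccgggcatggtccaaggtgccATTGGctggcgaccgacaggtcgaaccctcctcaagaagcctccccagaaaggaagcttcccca

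Tm7sf2: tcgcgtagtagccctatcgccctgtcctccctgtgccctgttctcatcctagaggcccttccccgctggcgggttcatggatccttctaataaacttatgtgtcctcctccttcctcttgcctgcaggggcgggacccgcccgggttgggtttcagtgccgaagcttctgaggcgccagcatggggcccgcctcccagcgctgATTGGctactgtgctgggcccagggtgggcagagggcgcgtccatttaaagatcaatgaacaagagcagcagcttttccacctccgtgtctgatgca

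Cyp51: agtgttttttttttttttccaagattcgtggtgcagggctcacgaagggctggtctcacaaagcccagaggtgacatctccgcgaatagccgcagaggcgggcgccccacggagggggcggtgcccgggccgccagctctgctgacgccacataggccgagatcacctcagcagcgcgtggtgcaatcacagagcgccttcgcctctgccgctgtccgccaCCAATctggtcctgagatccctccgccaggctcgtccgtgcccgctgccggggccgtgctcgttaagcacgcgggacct

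In Mvd the CCAAT boxes begin 60 and 27 bases before the start, in Idi1 45 and 14, in Tm7sf2 47 and in Cyp51 29. Hmgcs1 holds 4 of them. A match is a description of letters and not a site of binding, and a missing match says only that these letters are not in this window.

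Sterol uptake, sensing and export genes lay on both sides of 0. Of 5 kept uptake and sensing genes, 2 lay above 0 and 3 below, with a median of -0.04. Srebf1, which encodes the SREBP1 factors, had signals of 691 in wild type ND, 602 in HSL-null ND, 737 in wild type FD and 878 in HSL-null FD, a log2 ratio of 0.25 on FD and -0.20 on ND. Lrp1, a lipoprotein receptor, had 513 in wild type ND, 386 in HSL-null ND, 248 in wild type FD and 372 in HSL-null FD, a log2 ratio of 0.59, with wild type FD the lowest array. Abca1, the cholesterol exporter that liver X receptors induce, had 366 in wild type ND, 324 in HSL-null ND, 241 in wild type FD and 463 in HSL-null FD, a log2 ratio of 0.94. Its wild type FD signal was the lowest and its HSL-null FD signal the highest of the 4. The median of the 7 liver X receptor targets was 0.21, and 4 of them lay above 0.

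Among bile acid genes, the repressor Nr0b2 differed most. Nr0b2, also called SHP, is induced by the bile acid receptor and represses bile acid synthesis. Its signals were 99.5 in wild type ND, 104 in HSL-null ND, 97.1 in wild type FD and 220.4 in HSL-null FD, 2.27-fold higher on FD, while the 3 other arrays lay within 97.1 to 104.0. Nr1h4, the bile acid receptor FXR, had 163 in wild type FD and 204 in HSL-null FD, a log2 ratio of 0.32. Cyp7a1, the rate-limiting enzyme of bile acid synthesis, had 111 in wild type ND, 92.6 in HSL-null ND, 175 in wild type FD and 214 in HSL-null FD, a log2 ratio of 0.29, which is under the SD of probe-set disagreement. Abcc2, a canalicular export pump, had 99.8 in wild type FD and 160.0 in HSL-null FD and a log2 ratio of 0.68. The 14 kept bile acid genes had a median of 0.11, 9 above 0, and the median was -0.06 with arrays at a common median.

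Other nuclear receptors and liver transcription factors were on both sides of 0, 19 above and 13 below, with a median of 0.099 that turned to -0.068 with a common median. Prox1, a homeobox factor of liver and lymphatic cells, had 38.6 in wild type ND, 31.4 in HSL-null ND, 17.9 in wild type FD and 49.9 in HSL-null FD, 2.79-fold higher on FD, or 0.90 as log2 ratio if the floor is raised to the median of all signals. Its wild type FD signal stood apart below the other arrays. Nrip1, a corepressor of nuclear receptors, had 35.0 in wild type FD and 63.6 in HSL-null FD (0.86 as log2 ratio). Ahr, the dioxin receptor, had 102 in wild type FD and 181 in HSL-null FD, a log2 ratio of 0.83. Nr3c1, the glucocorticoid receptor, had 26.8 in wild type FD and 42.6 in HSL-null FD, a log2 ratio of 0.67.

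Fatty acid and triglyceride synthesis genes were mostly lower in HSL-null FD, 15 of 17 below 0 with a median of -0.37, against 0.012 on ND. Only 1, Thrsp, passed 2-fold. Thrsp, a nuclear protein that goes with lipogenesis, had 1235 in wild type ND, 883 in HSL-null ND, 1303 in wild type FD and 544 in HSL-null FD and a log2 ratio of -1.26. Me1, the malic enzyme that supplies NADPH, had 454 in wild type ND, 580.0 in HSL-null ND, 431 in wild type FD and 236 in HSL-null FD, a log2 ratio of -0.87. Fasn, fatty acid synthase, had 719 in wild type ND, 723 in HSL-null ND, 468 in wild type FD and 307 in HSL-null FD, a log2 ratio of -0.61 on FD and 0.0084 on ND. Slc25a1, the citrate carrier, had a log2 ratio of -0.65 from 789.9 and 502. In Me1 and Fasn the HSL-null FD signal was the lowest of the 4.

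Scd2 lay above 0, and the probe sets of Elovl6 disagreed. Scd2, a fatty acid desaturase, had 41.8 in wild type ND, 39.9 in HSL-null ND, 24.3 in wild type FD and 48.4 in HSL-null FD, a log2 ratio of 0.99, with 0.49 from its second probe set. Elovl6, an elongase, had 378 in wild type ND, 327 in HSL-null ND, 67.2 in wild type FD and 103 in HSL-null FD, a log2 ratio of 0.62 on FD. The dimmer probe set gave 80.9 and 66.6 in wild type and HSL-null FD, a log2 ratio of -0.28, so no direction is given for the gene. In the brighter probe set both FD signals of Elovl6 were far below both ND signals, so the genotype difference was small beside the diet difference.

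Genes of stored lipid differed less. Of 12 lipid droplet and lipase genes, 9 lay below 0 and 0 passed 2-fold, with a median of -0.18. G0s2, an inhibitor of the lipase ATGL, had 383 in wild type ND, 242 in HSL-null ND, 344 in wild type FD and 197 in HSL-null FD, a log2 ratio of -0.80 on FD and -0.66 on ND. It was thus lower in HSL-null liver on both diets. Plin2, the main coat protein of hepatic lipid droplets, had 1896 in wild type ND, 1908 in HSL-null ND, 1687 in wild type FD and 1858 in HSL-null FD, a log2 ratio of 0.14 that turned to -0.028 with a common median. Lipa, the lysosomal acid lipase, had 258 in wild type FD and 191 in HSL-null FD (-0.43 as log2 ratio, and 0.42 on ND). Lpl, lipoprotein lipase, had 41.2 in wild type FD and 56.0 in HSL-null FD and a log2 ratio of 0.44.

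Fatty acid binding proteins and carriers had a median of 0.16 (9 of 12 above 0), which was -0.0044 with a common median. Fabp7, a fatty acid binding protein, had 70.9 in wild type ND, 73.0 in HSL-null ND, 37.3 in wild type FD and 66.5 in HSL-null FD, a log2 ratio of 0.83, with wild type FD the lowest array. Scp2, a sterol and lipid carrier, had 2558 in wild type FD and 3430.2 in HSL-null FD and a log2 ratio of 0.42, but its second probe set, which is nearly as bright, gave 2503 and 2572 and 0.039. Dbi, the acyl-CoA binding protein, had 3340.1 in wild type FD and 2678 in HSL-null FD, a log2 ratio of -0.32. The scavenger receptor Cd36 had 36.7 in wild type FD and 47.5 in HSL-null FD, a log2 ratio of 0.37.

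Peroxisomal genes, many of them targets of the fatty acid receptor PPARα, were 11 of 15 below 0 with a median of -0.16. The ND median was 0.058. Wild type FD was the highest array for 11 of 15. Of all genes, 41.5% lay below 0 on FD and 25.4% were highest in wild type FD. Ech1, an enoyl-CoA isomerase, had 996 in wild type ND, 962 in HSL-null ND, 1792 in wild type FD and 1027 in HSL-null FD, a log2 ratio of -0.80, and only the wild type FD signal stood out. Pex11a, a factor of peroxisome division, had 431 in wild type ND, 246 in HSL-null ND, 469 in wild type FD and 293 in HSL-null FD, lower in HSL-null liver on FD (-0.68) and ND (-0.81). Acaa1a, a peroxisomal thiolase, had a log2 ratio of -0.31 from 1201 and 968. Acot1, a cytosolic acyl-CoA thioesterase induced by PPARα that was named after its values were seen, had 112 in wild type ND, 102 in HSL-null ND, 229 in wild type FD and 101 in HSL-null FD, 2.26-fold lower on FD.

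Mitochondrial fatty acid oxidation and ketogenesis genes lay close to 0, from -0.28 to 0.34, with a median of -0.062 over 17 genes. Ppara, the receptor itself, had 368 in wild type FD and 303 in HSL-null FD, a log2 ratio of -0.28. Cpt1a, which admits fatty acids to mitochondria, had 1281 in wild type FD and 1238 in HSL-null FD, a log2 ratio of -0.049. Acadl, long-chain acyl-CoA dehydrogenase, had 254 in wild type FD and 321 in HSL-null FD, a log2 ratio of 0.34. The sizes of Ppara and Cpt1a were under the SD of probe-set disagreement.

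Apolipoprotein genes had a median of -0.035 over 16 genes, which was 0.017 after cyclic loess. Apob, the protein of very-low-density lipoprotein, had 1176 in wild type ND, 1177 in HSL-null ND, 703 in wild type FD and 1222 in HSL-null FD, a log2 ratio of 0.80. The wild type FD signal of Apob was the low one, and the 3 others lay within 1176 to 1222. Apobec1, which edits the Apob transcript, had 72.0 in wild type ND, 90.4 in HSL-null ND, 53.7 in wild type FD and 109.5 in HSL-null FD, 2.04-fold higher on FD. Apom, carried on high-density lipoprotein, had 1232 in wild type FD and 861 in HSL-null FD, a log2 ratio of -0.52.

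**Figure D3:**
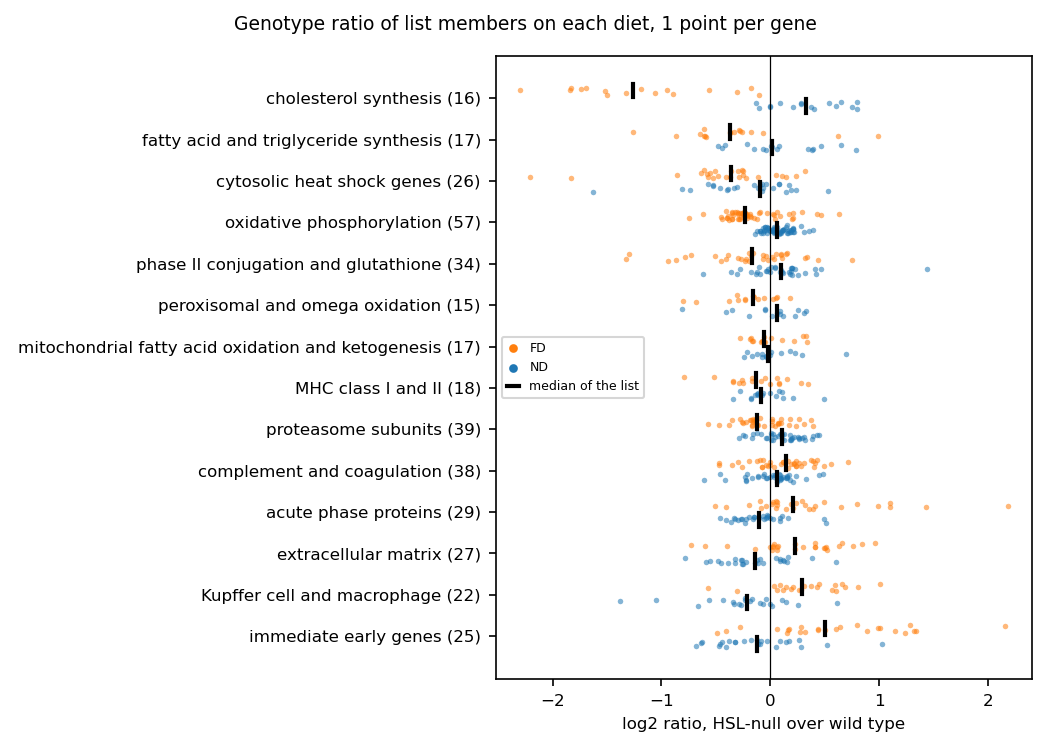
Each point is the log2 ratio of HSL-null over wild type (x) of 1 gene on FD (orange) or ND (blue) in 14 gene lists (y, number kept in brackets), and black bars mark list medians. The FD and ND medians of cholesterol synthesis lie at -1.26 and 0.33 and those of immediate early genes at 0.50 and -0.12.

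Genes of glucose output were split, 9 above and 9 below 0 with a median of -0.016, and only Igfbp1 and Ppp1r3c passed 2-fold. Ppp1r3c, which targets a phosphatase to glycogen, had 27.1 in wild type ND, 45.9 in HSL-null ND, 27.4 in wild type FD and 60.5 in HSL-null FD, a log2 ratio of 1.14 on FD and 0.76 on ND. G6pc, the catalytic subunit of glucose-6-phosphatase, had 1286 in wild type ND, 1348 in HSL-null ND, 718 in wild type FD and 1288 in HSL-null FD, a log2 ratio of 0.84. Slc37a4, its transporter subunit, had 848 in wild type ND, 622 in HSL-null ND, 629 in wild type FD and 398 in HSL-null FD, a log2 ratio of -0.66. The subunits of the same enzyme system thus lay on opposite sides of 0. Pck1, the cytosolic carboxykinase, had 927 in wild type ND, 1101 in HSL-null ND, 689.7 in wild type FD and 912 in HSL-null FD, a log2 ratio of 0.40, and Pck2, the mitochondrial form, had 19.2 in wild type FD and 33.9 in HSL-null FD, a log2 ratio of 0.82.

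Glycolytic genes were near 0 as a group, with a median of -0.036 over 17. Pklr, liver pyruvate kinase, had 299 in wild type ND, 391 in HSL-null ND, 289 in wild type FD and 192 in HSL-null FD, a log2 ratio of -0.59 on FD against 0.39 on ND. Pdk1, which inhibits pyruvate dehydrogenase, had 264 in wild type FD and 178 in HSL-null FD, a log2 ratio of -0.56. Hk1, a hexokinase, had 1117 in wild type ND, 1080.1 in HSL-null ND, 468 in wild type FD and 673 in HSL-null FD, a log2 ratio of 0.52. Both FD signals of Hk1 lay under both ND signals.

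In the insulin-like growth factor axis, Igfbp1 stood apart from the rest. Igfbp1, a hepatic binding protein that insulin represses, had signals of 419.7 in wild type ND, 1648 in HSL-null ND, 271 in wild type FD and 1734 in HSL-null FD. Both HSL-null signals lay far above both wild-type signals, and on FD it was 6.40-fold higher. Its only kept probe set has a suffix that marks shared or mixed probes. The other probe set of Igfbp1 was under the floor on both FD arrays (1.3 and 2.7). Igfbp3, the main carrier of circulating IGF, had 43.7 in wild type FD and 61.2 in HSL-null FD, a log2 ratio of 0.49. Igf1 itself had 1937 in wild type ND, 1818 in HSL-null ND, 1941 in wild type FD and 1707 in HSL-null FD, a log2 ratio of -0.19. Cish, a feedback inhibitor that growth hormone induces through STAT5, had 87.7 in wild type ND, 51.1 in HSL-null ND, 69.1 in wild type FD and 46.2 in HSL-null FD, a log2 ratio of -0.58 on FD and -0.78 on ND. The 13 genes of the axis had a median of 0.091, or -0.076 with a common median.

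Insulin and mTOR signalling genes had a median of 0.025 over 26, with 0 past 2-fold, and the sign of that median was negative under the 3 other scalings. Ddit4, an inhibitor of mTOR, had 44.5 in wild type ND, 92.4 in HSL-null ND, 69.7 in wild type FD and 122 in HSL-null FD, higher in HSL-null liver on FD (0.81) and ND (1.05). Pdpk1, the kinase upstream of AKT, had 79.5 in wild type FD and 126 in HSL-null FD, a log2 ratio of 0.66. Foxo3, a factor restrained by insulin, had 88.8 in wild type FD and 63.0 in HSL-null FD, a log2 ratio of -0.50. Trib3, an AKT inhibitor, had 21.8 in wild type FD and 28.3 in HSL-null FD, a log2 ratio of 0.38.

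Cytochrome P450 genes held the widest range, from -8.06 to 0.63, with 6 of 28 at least 2-fold lower, 0 higher and a median of -0.051. Of all genes, 0.953% were 2-fold lower and 1.86% higher. Cyp51, among the 6, is also counted with the cholesterol synthesis genes. Cyp2b9, a steroid hydroxylase of female liver, had signals of 1046 in wild type ND, 166 in HSL-null ND, 1632 in wild type FD and 2.1 in HSL-null FD. The HSL-null FD signal lay under the floor, so the gene was at least 268-fold lower. Cyp2b13, its close relative, had 129 in wild type ND, 3.2 in HSL-null ND, 610.0 in wild type FD and 1.3 in HSL-null FD, at least 100-fold lower on FD. Cyp2b10, the phenobarbital-inducible member, had 44.5 in wild type ND, 28.4 in HSL-null ND, 58.0 in wild type FD and 21.6 in HSL-null FD, a log2 ratio of -1.43 with no signal at the floor. These paralogs are similar in sequence, and how far their probe sets share transcripts was not tested. The Cyp2b cluster lies beside the targeted Lipe gene, and the part of that position in these ratios was not tested.

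Cyp2c39 and Cyp17a1 were at least 2-fold lower on FD and close to equal on ND. Cyp2c39, a retinoic acid hydroxylase, had 1971 in wild type ND, 1912 in HSL-null ND, 1985 in wild type FD and 494 in HSL-null FD, 4.02-fold lower on FD with -0.043 as log2 ratio on ND. Cyp17a1, a steroid hydroxylase with female bias in mouse liver, had 950.3 in wild type ND, 987 in HSL-null ND, 912 in wild type FD and 393 in HSL-null FD, a log2 ratio of -1.21 on FD and 0.054 on ND. In both, 3 signals lay close together and the HSL-null FD signal lay below them. Cyp3a11, the main drug oxidase, had 2423 in wild type FD and 2871 in HSL-null FD, a log2 ratio of 0.24. Another gene among the 20 lowest was 0610005C13Rik, with 198 in wild type ND, 150.5 in HSL-null ND, 291 in wild type FD and 72.0 in HSL-null FD and a log2 ratio of -2.01.

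Conjugation and glutathione genes had 22 of 34 below 0, 2 of them 2-fold, and a median of -0.17 against 0.094 on ND. The lowest were glutathione transferases. Gsta4, which conjugates lipid peroxidation products, had 75.9 in wild type ND, 105 in HSL-null ND, 242 in wild type FD and 96.3 in HSL-null FD, 2.52-fold lower on FD. Gstm6 had 92.8 in wild type ND, 110.0 in HSL-null ND, 162 in wild type FD and 66.0 in HSL-null FD, a log2 ratio of -1.30, and its second probe set gave -0.89. Mgst3, a microsomal transferase, had 326 in wild type ND, 349 in HSL-null ND, 614 in wild type FD and 320.1 in HSL-null FD, a log2 ratio of -0.94, and Gsta2 had 95.2 in wild type ND, 76.8 in HSL-null ND, 204 in wild type FD and 111 in HSL-null FD, a log2 ratio of -0.87. In these 4 the wild type FD signal was the highest, and the HSL-null FD signal lay nearer to the ND signals. Gclc, the rate-limiting enzyme of glutathione synthesis, was named after its values were seen and went the other way, with 441 in wild type ND, 495 in HSL-null ND, 403 in wild type FD and 679 in HSL-null FD and a log2 ratio of 0.75.

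Sult3a1, a sulfotransferase with female bias, had 156 in wild type ND, 424 in HSL-null ND, 772 in wild type FD and 465 in HSL-null FD. It was lower in HSL-null liver on FD (-0.73) and higher on ND (1.44). Of the 10 kept female-biased genes 7 lay below 0, with a median of -0.28. Of 10 male-biased genes 7 lay above 0, with a median of 0.14 that became -0.028 with a common median. Of all genes, 58.3% lay above 0 and 41.5% below, so the male-biased count was near the share of all genes. Egfr, the epidermal growth factor receptor, had 66.0 in wild type ND, 100 in HSL-null ND, 55.9 in wild type FD and 108 in HSL-null FD, a log2 ratio of 0.95, and Hsd3b2 had 41.9 in wild type ND, 65.9 in HSL-null ND, 65.7 in wild type FD and 114 in HSL-null FD, a log2 ratio of 0.80. Hsd3b2 was above wild type on ND too, at 0.65. Egfr had 0.60 on ND, but its second probe set gave 0.51 on FD and -0.73 on ND, so its ND direction turned with the probe set.

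Genes that act on retinoids had a median of -0.033 over 12. The 3 lowest, Rdh16, Rdh5 and Rdh11, are short-chain retinol dehydrogenases, while Rdh7 and Dhrs4 of the same family were at -0.036 and -0.031, named after their values were seen. Rdh16 had 131 in wild type ND, 135 in HSL-null ND, 164 in wild type FD and 92.4 in HSL-null FD, a log2 ratio of -0.83. Rdh5 had 59.5 in wild type ND, 83.9 in HSL-null ND, 100.3 in wild type FD and 59.6 in HSL-null FD, a log2 ratio of -0.75 on FD and 0.50 on ND, and Rdh11 had 427 in wild type ND, 698 in HSL-null ND, 437 in wild type FD and 279.5 in HSL-null FD, a log2 ratio of -0.65 on FD and 0.71 on ND. Rdh5 and Rdh11 were thus below wild type on FD and above it on ND. Aldh1a1, which makes retinoic acid, had 3168 in wild type FD and 3585 in HSL-null FD, a log2 ratio of 0.18.

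Clock genes moved on both sides, with a list median of 0.069 that was -0.11 with a common median. Usp2, a deubiquitinase with clock-driven expression, had 104 in wild type ND, 31.1 in HSL-null ND, 189 in wild type FD and 25.4 in HSL-null FD and was 7.44-fold lower on FD. Its second probe set gave a log2 ratio of -2.59. Dbp, an output factor, had 134 in wild type ND, 64.3 in HSL-null ND, 189 in wild type FD and 54.4 in HSL-null FD, a log2 ratio of -1.80. Tef, a related factor, had 105 in wild type ND, 68.2 in HSL-null ND, 115 in wild type FD and 38.8 in HSL-null FD, a log2 ratio of -1.57. Per1, a repressor of the clock, had 49.9 in wild type ND, 25.8 in HSL-null ND, 27.0 in wild type FD and 7.3 in HSL-null FD, a log2 ratio of -1.89. Per1 was dim, and a floor raised to the median of all signals left a log2 ratio of -0.016, so its call rests on signals near or under that level. For these 4 both HSL-null signals lay below the wild-type signal of the same diet.

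Arntl, the activator that drives Dbp and Per1, had 34.5 in wild type ND, 49.3 in HSL-null ND, 16.1 in wild type FD and 50.4 in HSL-null FD, 3.13-fold higher on FD, or 0.92 as log2 ratio with that higher floor. Clock, its partner, was named after its values were seen and had 39.0 in wild type ND, 35.1 in HSL-null ND, 23.3 in wild type FD and 42.8 in HSL-null FD, a log2 ratio of 0.88. In both activators wild type FD was the lowest array. The labels give no time of day for the taking of the livers.

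The E-box CACGTG, a palindrome to which ARNTL and CLOCK bind, was searched in the windows of 15 of 17 clock genes, and Bhlhe40 and Csnk1d had no entry. It was present in 3, Cry1, Per1 and Tef, and in 8.09% of all genes (7.15% of windows). Per1 (chr11:69098699-69098998, plus strand) holds it 166 bases and the first Tef window (chr15:81802423-81802722, plus strand) 127 bases before the start. A second Tef window holds it as well. Both genes are shown with the E-box in capitals because both were lower on the deposited scale, Per1 with the limit given above, while Cry1, a repressor that also holds it, had a log2 ratio of 0.23.

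Per1: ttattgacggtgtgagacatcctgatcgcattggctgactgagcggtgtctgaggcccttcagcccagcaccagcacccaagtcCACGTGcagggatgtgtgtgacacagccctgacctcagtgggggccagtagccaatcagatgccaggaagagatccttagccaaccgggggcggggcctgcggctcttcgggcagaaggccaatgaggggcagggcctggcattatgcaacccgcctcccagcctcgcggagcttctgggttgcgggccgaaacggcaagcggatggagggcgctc

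Tef: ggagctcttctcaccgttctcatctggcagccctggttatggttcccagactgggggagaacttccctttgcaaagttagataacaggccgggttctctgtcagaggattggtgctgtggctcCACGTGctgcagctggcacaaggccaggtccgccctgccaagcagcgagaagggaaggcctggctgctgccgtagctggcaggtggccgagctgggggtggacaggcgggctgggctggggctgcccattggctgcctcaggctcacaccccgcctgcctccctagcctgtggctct

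Cytosolic heat shock genes were mostly lower in HSL-null FD, 21 of 26 below 0, 2 of them 2-fold. Their median was -0.36 on FD and -0.099 on ND. Of all genes, 41.5% lay below 0 on FD and 0.953% were 2-fold lower. Hspa1b, an inducible HSP70, had 173 in wild type ND, 55.8 in HSL-null ND, 286 in wild type FD and 61.9 in HSL-null FD, 4.61-fold lower on FD and 3.10-fold lower on ND. Hspa1a, its near-identical neighbour, had 33.4 in wild type ND, 23.2 in HSL-null ND, 64.1 in wild type FD and 18.0 in HSL-null FD, a log2 ratio of -1.83, and probes may read both. Hsph1, an HSP110 partner of HSP70, had 368 in wild type ND, 209.6 in HSL-null ND, 372 in wild type FD and 205 in HSL-null FD, lower by a log2 ratio of -0.86 on FD and -0.81 on ND. Chordc1, a cochaperone of HSP90, had 241 in wild type ND, 167 in HSL-null ND, 324 in wild type FD and 207 in HSL-null FD, a log2 ratio of -0.64. Bag3, which hands clients of HSP70 to autophagy, had 79.6 in wild type ND, 81.0 in HSL-null ND, 159.5 in wild type FD and 104 in HSL-null FD, a log2 ratio of -0.61, and differed little on ND.

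The heat shock element was searched as 3 alternating units, GAANNTTCNNGAA, on both strands, a form bound by the factor HSF1. It was present in 4 of 23 heat shock genes with a window, Chordc1, Hspd1, Hspe1 and Hsph1, and in 0.66% of all genes (0.60% of windows). The windows of Hspd1 and Hspe1 overlap, beginning at bases 55087883 and 55087898, so their matches are not independent of each other. Cct4, Hsp90aa1 and Hspa8 had no entry. Chordc1 and Hsph1 are among the lower genes, whereas Hspe1 and Hspd1, the mitochondrial chaperonins, had log2 ratios of -0.25 and 0.24 (0.79 from a dim second probe set of Hspd1) and are named for that match. The window of Chordc1 (chr9:18292017-18292316, plus strand) is shown because it holds 3 overlapping matches, in capitals, that begin 4 bases before the start and 2 and 7 bases into the gene.

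Chordc1: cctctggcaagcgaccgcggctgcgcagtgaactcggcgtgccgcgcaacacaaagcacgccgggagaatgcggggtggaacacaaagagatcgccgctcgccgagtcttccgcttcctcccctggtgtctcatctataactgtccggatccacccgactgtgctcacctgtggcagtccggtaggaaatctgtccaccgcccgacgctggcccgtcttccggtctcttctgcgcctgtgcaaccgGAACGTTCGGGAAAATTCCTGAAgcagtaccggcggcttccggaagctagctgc

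Chaperones of the endoplasmic reticulum stayed near the median of all genes, with 11 of 26 above 0, 0 past 2-fold and a median of -0.054. Hspa5, the main chaperone of the compartment, had 1630.2 in wild type ND, 1892 in HSL-null ND, 1821 in wild type FD and 1619 in HSL-null FD, a log2 ratio of -0.17. Creld2, a stress-induced secretory protein, had 196 in wild type ND, 139 in HSL-null ND, 191 in wild type FD and 122 in HSL-null FD, lower on FD (-0.65) and ND (-0.49). Dnajb9, a cochaperone, had 327 in wild type ND, 281 in HSL-null ND, 248 in wild type FD and 443 in HSL-null FD, a log2 ratio of 0.84, but its second probe set gave 183 and 159 on FD and -0.20, the opposite direction. Asns, asparagine synthetase, a target of the amino acid response, had 146 in wild type ND, 95.6 in HSL-null ND, 69.6 in wild type FD and 137 in HSL-null FD, a log2 ratio of 0.98.

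Immediate early genes were higher in HSL-null FD as a group. These are genes that growth factors or stress switch on within minutes. Of 25 kept, 22 lay above 0 (58.3% of all genes did) and 7 were at least 2-fold higher, with 0 lower and a median of 0.50. On ND the median was -0.12 and 8 of 25 lay above 0. HSL-null FD was the highest of the 4 arrays for 17 of 25 and wild type FD the lowest for 12. Over the 10 alternatives the median stayed within 0.33 to 0.62.

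Egr1 and Jun, which encode transcription factors, had the highest ratios of the group. Egr1, a zinc finger factor, had signals of 94.5 in wild type ND, 68.7 in HSL-null ND, 45.8 in wild type FD and 205 in HSL-null FD. It was 4.48-fold higher on FD, with the lowest signal in wild type FD and the highest in HSL-null FD. Jun, part of the factor AP-1, had 30.9 in wild type ND, 27.3 in HSL-null ND, 30.3 in wild type FD and 76.8 in HSL-null FD, 2.53-fold higher, and here the 3 other arrays lay within 27.3 to 30.9. Fos, its partner, had 38.6 in wild type ND, 29.7 in HSL-null ND, 51.6 in wild type FD and 104 in HSL-null FD, a log2 ratio of 1.01. Fos was close to the 2-fold threshold. Ier2 had 212 in wild type ND, 199.7 in HSL-null ND, 163 in wild type FD and 386 in HSL-null FD, a log2 ratio of 1.24, and Atf3, a stress-induced factor, had 41.0 in wild type ND, 32.9 in HSL-null ND, 40.6 in wild type FD and 54.9 in HSL-null FD, a log2 ratio of 0.44.

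Regulators of growth arrest were also among the immediate early genes. Gadd45g, a stress sensor, had 64.9 in wild type ND, 67.5 in HSL-null ND, 45.3 in wild type FD and 113 in HSL-null FD, a log2 ratio of 1.32. Btg2, an antiproliferative cofactor, had 149 in wild type ND, 137 in HSL-null ND, 83.1 in wild type FD and 202 in HSL-null FD, a log2 ratio of 1.28. Klf2, a zinc finger factor named after its values were seen, had 21.3 in wild type ND, 43.6 in HSL-null ND, 20.7 in wild type FD and 45.8 in HSL-null FD and was higher in HSL-null liver on FD (1.15) and on ND (1.03). The 3 members below 0 were Klf10 at -0.49, Ccn2 at -0.41 and Mcl1 at -0.28, also named after their values were seen. Junb, a partner of Fos named likewise, had log2 ratios of 0.27 from the brighter and 1.35 from the dimmer probe set.

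The cyclic AMP element TGACGTCA, a palindrome bound by CREB, was searched in the windows of 20 of the 25 genes. It was present in 2, Btg2 and Dusp1, and in 2.03% of all genes (1.79% of windows). Ccn2, Cebpd, Egr1, Ier2 and Klf10 had no entry. Dusp1, a phosphatase that ends MAP kinase signals and is named for that match, had 432 and 539 in wild type and HSL-null FD, a log2 ratio of 0.32. Btg2 (chr1:134079106-134079405, minus strand) is the 2-fold higher gene with the element, which begins 166 bases before the start and is in capitals.

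Btg2: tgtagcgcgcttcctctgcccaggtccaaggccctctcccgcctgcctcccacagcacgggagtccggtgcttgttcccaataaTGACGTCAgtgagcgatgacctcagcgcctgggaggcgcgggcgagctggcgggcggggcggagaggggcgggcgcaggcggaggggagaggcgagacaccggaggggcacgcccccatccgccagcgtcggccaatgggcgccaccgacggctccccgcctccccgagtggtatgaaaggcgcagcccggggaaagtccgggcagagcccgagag

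Acute phase genes were 23 of 29 above 0, 4 of them 2-fold, with a median of 0.21 on FD and -0.10 on ND. Of all genes, 58.3% lay above 0 and 1.86% were 2-fold higher. Wild type FD was the lowest of the 4 arrays for 20 of 29, and for 36.0% of all genes. Saa2, a serum amyloid, had 2456 in wild type ND, 2388 in HSL-null ND, 786 in wild type FD and 3552 in HSL-null FD, 4.52-fold higher on FD. Its second probe set gave 117 and 1535, a log2 ratio of 3.72, and the ND ratio was -0.041. Lcn2, an iron-siderophore binder of liver and neutrophils, had 489 in wild type ND, 468 in HSL-null ND, 257 in wild type FD and 690.4 in HSL-null FD, a log2 ratio of 1.43, with 0.29 from a dimmer probe set. Orm2, an acid glycoprotein, had 504 in wild type ND, 484 in HSL-null ND, 306 in wild type FD and 654 in HSL-null FD, a log2 ratio of 1.10. In all 3 the ND signals of the genotypes were nearly equal.

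Mt1 and Mt2, metallothioneins that bind zinc and copper, were higher in HSL-null liver on both diets. Mt2 had 702 in wild type ND, 999 in HSL-null ND, 349 in wild type FD and 746 in HSL-null FD, a log2 ratio of 1.10 on FD and 0.51 on ND. Mt1 had 985 in wild type ND, 1382 in HSL-null ND, 639.8 in wild type FD and 1274 in HSL-null FD, 0.99 and 0.49. Mtf1, the factor that induces them, had 22.9 in wild type ND, 30.8 in HSL-null ND, 28.5 in wild type FD and 37.5 in HSL-null FD, a log2 ratio of 0.40. The other metal genes lay between -0.36 and 0.40, and Sod1, the copper-zinc superoxide dismutase, was the lowest, with 2076 in wild type FD and 1616 in HSL-null FD.

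Complement and coagulation genes had a median of 0.14 over 38, which was -0.029 with a common median, and 0 passed 2-fold. Hc, complement component C5, had 1336 in wild type ND, 1275 in HSL-null ND, 797 in wild type FD and 1307 in HSL-null FD, a log2 ratio of 0.71. Fga, a fibrinogen chain, had 1383 in wild type ND, 1005 in HSL-null ND, 1009 in wild type FD and 1415 in HSL-null FD, a log2 ratio of 0.49. C8g, part of the membrane attack complex, had 2693 in wild type FD and 1949.9 in HSL-null FD, a log2 ratio of -0.47. Masp2, a protease of the lectin pathway, had 292 in wild type FD and 212 in HSL-null FD with the same ratio.

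Immunoglobulin genes stood out among the higher genes and were collected as a group after their values were seen. All 16 kept genes of this kind were taken, and 15 lay above 0, 8 of them 2-fold, with a median of 1.03 on FD and -0.071 on ND. Wild type FD was the lowest array for 13 of 16 and HSL-null FD the highest for 13. Jchain, which joins secreted IgM and IgA, had 48.4 in wild type ND, 46.8 in HSL-null ND, 15.4 in wild type FD and 93.4 in HSL-null FD, 6.06-fold higher on FD. Igkv6-23, a kappa variable segment, had 325 in wild type ND, 251 in HSL-null ND, 112 in wild type FD and 529 in HSL-null FD, a log2 ratio of 2.24. Ighm, the heavy chain of IgM, had 226 in wild type ND, 156 in HSL-null ND, 128 in wild type FD and 341 in HSL-null FD, a log2 ratio of 1.41 with 1.11 from its second probe set. In all 3 both ND signals lay between the wild type FD signal, the lowest, and the HSL-null FD signal, the highest.

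Other segments were dimmer. Igh-VS107, a heavy variable segment, had 37.3 in wild type ND, 18.6 in HSL-null ND, 8.8 in wild type FD and 45.4 in HSL-null FD, a log2 ratio of 2.37, and Igkv14-111 had 26.9 in wild type ND, 29.5 in HSL-null ND, 15.2 in wild type FD and 50.8 in HSL-null FD, a log2 ratio of 1.74. Under a floor raised to the median of all signals these ratios were 0.77 and 0.93, both under 2-fold. Igha, the heavy chain of IgA, had 38.6 in wild type ND, 71.5 in HSL-null ND, 41.7 in wild type FD and 46.6 in HSL-null FD and a log2 ratio of 0.16, named after its values were seen. Variable segments are alike in sequence, so 1 transcript can be read by several probe sets and the genes are not independent.

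Markers of blood-borne and resident immune cells gave the following values. Lymphocyte and antigen-presenting cell markers had a summed signal of 689 in wild type FD and 1095 in HSL-null FD over 24 measured genes, with 1114 and 838 on ND. Ighm and Jchain, also counted among the immunoglobulin genes, make up much of that difference, and without them, a sum taken after their values were seen, it was 546 and 661 on FD and 841 and 635 on ND. The B cell marker Ms4a1 had 67.0 in wild type FD and 47.5 in HSL-null FD, a log2 ratio of -0.50, and Blnk and Coro1a had 0.043 and 0.064. Other markers of this list were higher. Cd79b had 20.6 in wild type FD and 31.2 in HSL-null FD, a log2 ratio of 0.60. Cd52 had 104.2 and 128.5, a log2 ratio of 0.30. Ms4a1, Blnk, Coro1a, Cd79b and Cd52 were all named after their values were seen. The T cell markers Cd2, Cd3d, Cd3g, Cd8a and Cd8b1 and the cytotoxic gene Prf1 were at the floor on both FD arrays. Ptprc, the pan-leukocyte CD45, had 47.8 in wild type ND, 24.4 in HSL-null ND, 13.7 in wild type FD and 36.6 in HSL-null FD, a log2 ratio of 1.42 with 1.19 from its second probe set. Under the floor raised to the median of all signals the ratio was 0.46, which is less than 2-fold. Its signal was highest in wild type ND. Ccl5, a chemokine of T cells, had 49.3 in wild type FD and 24.6 in HSL-null FD, a log2 ratio of -1.00 (-0.88 with that floor), and Cd53, a leukocyte tetraspanin, had 231 in wild type ND, 170.5 in HSL-null ND, 97.7 in wild type FD and 149 in HSL-null FD, a log2 ratio of 0.61. The part of cell numbers in these ratios was not tested.

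Kupffer cell and macrophage markers were 20 of 22 above 0 with a median of 0.29, and 1 passed 2-fold. Of all genes, 58.3% lay above 0 and 1.86% were 2-fold higher. Their summed signal was 4349 in wild type FD and 5412 in HSL-null FD over 26 genes, with 6464 and 5660 on ND, and Fcer1g and Itgam were at the floor on both FD arrays. Itgb2, the common beta chain of leukocyte integrins, had 118 in wild type ND, 45.5 in HSL-null ND, 24.7 in wild type FD and 49.6 in HSL-null FD, a log2 ratio of 1.01 on FD, which was under 2-fold with each of the 3 other scalings, and -1.38 on ND. Mpeg1, a pore protein of macrophages, had 376 in wild type ND, 329 in HSL-null ND, 193 in wild type FD and 339 in HSL-null FD, a log2 ratio of 0.81. Csf1r, the receptor of macrophage growth, had 269.7 in wild type ND, 224 in HSL-null ND, 201 in wild type FD and 215 in HSL-null FD, a log2 ratio of 0.093 that was -0.074 with a common median. For each of these 3 genes the highest signal was in wild type ND.

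Neutrophil markers had a summed signal of 424 in wild type FD and 980 in HSL-null FD over 14 genes, with 749 and 647 on ND. Much of that sum is Lcn2, which hepatocytes also make, and without it the sum was 167 and 290 on FD and 260 and 178 on ND. Cxcr2, Mmp8, Mmp9 and Ngp were at the floor on both FD arrays. Csf3r, the receptor of neutrophil growth, had 109 in wild type ND, 75 in HSL-null ND, 69.2 in wild type FD and 87.1 in HSL-null FD, a log2 ratio of 0.33. It was the only kept neutrophil marker besides Lcn2.

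Among chemokines, cytokines and receptors 15 of 21 lay above 0, 2 were 2-fold higher and 1 2-fold lower, with a median of 0.19. Cxcl1, a neutrophil attractant, had 313 in wild type ND, 89.6 in HSL-null ND, 62.7 in wild type FD and 246 in HSL-null FD, 3.93-fold higher on FD and 3.49-fold lower on ND. Its second probe set gave 2.20 on FD. Il1b, interleukin 1β, had 53.2 in wild type ND, 26.1 in HSL-null ND, 20 in wild type FD and 55.3 in HSL-null FD, a log2 ratio of 1.47 on FD and -1.03 on ND. In both the wild type FD and HSL-null ND signals were low, and the wild type ND and HSL-null FD signals high. Cxcl9, an interferon-induced attractant of T cells, had 101 in wild type ND, 155 in HSL-null ND, 154 in wild type FD and 78.4 in HSL-null FD and went the other way, with -0.97 on FD and 0.63 on ND.

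Interferon response genes lay on both sides, 17 of 28 above 0, with a median of 0.088 that turned to -0.08 with a common median. Ifi27l2a had 54.6 in wild type FD and 93.0 in HSL-null FD, a log2 ratio of 0.77, and Rsad2, the antiviral viperin, had 26.9 in wild type FD and 42.8 in HSL-null FD, a log2 ratio of 0.67. Antigen presentation genes were 12 of 18 below 0 with a median of -0.13. The lowest were of class II. H2-Aa had 263 in wild type ND, 304 in HSL-null ND, 354 in wild type FD and 205 in HSL-null FD, a log2 ratio of -0.79, and Cd74, the invariant chain, had 884 in wild type ND, 882 in HSL-null ND, 815 in wild type FD and 567 in HSL-null FD, a log2 ratio of -0.52. H2-Ab1 and H2-Eb1 each had -0.34, so these 4 genes lay below 0 while most macrophage markers lay above.

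Matrix and stellate cell genes lay mostly above 0. Of 27 matrix genes 22 lay above 0 (58.3% of all genes did), 0 passed 2-fold and the median was 0.23 on FD and -0.14 on ND. Over the 10 alternatives the FD median was as low as 0.059. Many matrix genes were dim, and all genes of the 2 dimmest signal groups had FD medians of 0.17 and 0.14. Of 13 stellate and fibroblast markers 10 lay above 0, with a median of 0.50, and their summed signal was 2241 in wild type FD and 2867 in HSL-null FD, with 2864 and 2729 on ND. Pdgfra, a growth factor receptor of these cells, had 58.4 in wild type ND, 61.7 in HSL-null ND, 25.5 in wild type FD and 62.4 in HSL-null FD, 2.45-fold higher on FD. Here the wild type FD signal was low and the 3 others lay within 58.4 to 62.4. Col14a1, a fibril-associated collagen, had 68.7 in wild type ND, 104 in HSL-null ND, 45.2 in wild type FD and 88.2 in HSL-null FD, a log2 ratio of 0.96 on FD and 0.60 on ND.

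The main fibril collagens differed less. Col3a1 had 46.5 in wild type ND, 37.3 in HSL-null ND, 35.8 in wild type FD and 60.8 in HSL-null FD, a log2 ratio of 0.76, and Col1a1 had 36.8 in wild type ND, 26.3 in HSL-null ND, 35.8 in wild type FD and 50.8 in HSL-null FD, a log2 ratio of 0.50. Bgn, a small proteoglycan, had 598 in wild type ND, 438 in HSL-null ND, 297 in wild type FD and 529 in HSL-null FD, a log2 ratio of 0.84, with wild type FD lowest. A second probe set gave 133 and 122 on FD and -0.13, the opposite direction. Acta2, smooth muscle actin, had 28.2 in wild type FD and 46.3 in HSL-null FD, a log2 ratio of 0.72. Lamc1, a laminin chain of basement membrane, had 56.3 in wild type ND, 32.7 in HSL-null ND, 70.1 in wild type FD and 42.2 in HSL-null FD and was lower on FD (-0.73) and ND (-0.78).

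Other cell types moved less. The summed signal of endothelial markers was 1697 in wild type FD and 1537 in HSL-null FD, that of cholangiocyte markers 2070 and 1887, and that of red blood cell markers 3212 and 2781. Adipocyte markers gave 2993 and 3394, with Cidec and Retn at the floor on both FD arrays. Much of that sum is Car3, with 2451 in wild type FD and 2834 in HSL-null FD. Exocrine pancreas markers gave 641 and 674 on FD against 1380 and 622 on ND. Prss2, a trypsinogen, had 136 in wild type ND, 15.2 in HSL-null ND, 4.6 in wild type FD and 1.9 in HSL-null FD, at the floor on both FD arrays. Ctrb1, a chymotrypsinogen, had 286 in wild type ND, 67.9 in HSL-null ND, 74.1 in wild type FD and 49.8 in HSL-null FD, and both were highest in wild type ND, which is outside the FD comparison. Ctrl, a related protease, had 134 in wild type FD and 96.9 in HSL-null FD, and Cela1, an elastase, had 99.9 in wild type FD and 184 in HSL-null FD, a log2 ratio of 0.88, so the members did not move together on FD.

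Oxidative phosphorylation genes were 44 of 57 below 0 with a median of -0.23 on FD and 0.058 on ND, and 0 passed 2-fold. Wild type FD was the highest array for 37 of 57. Of all genes, 41.5% lay below 0 on FD and 25.4% were highest in wild type FD. Ndufa2, a subunit of complex I, had 419 in wild type ND, 519 in HSL-null ND, 649 in wild type FD and 384 in HSL-null FD, a log2 ratio of -0.75. Sdhb, of complex II, had 983 in wild type ND, 1099 in HSL-null ND, 1325 in wild type FD and 974 in HSL-null FD, a log2 ratio of -0.44. Cycs, cytochrome c, had 103 in wild type ND, 125 in HSL-null ND, 129.6 in wild type FD and 200.1 in HSL-null FD and was the highest, with 0.63. Tricarboxylic acid cycle genes were 12 of 22 below 0 with a median of -0.037, and Cs, citrate synthase, had 259 in wild type FD and 355 in HSL-null FD, a log2 ratio of 0.45.

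Protein synthesis and breakdown genes lay a little below 0. Cytosolic ribosomal proteins had a median of -0.14 over 23 and proteasome subunits of -0.12 over 39, against -0.082 and 0.11 on ND. Rps19 had 804 in wild type ND, 895 in HSL-null ND, 1213 in wild type FD and 760.5 in HSL-null FD, a log2 ratio of -0.67, and Psmb3, a proteasome core subunit, had 717 in wild type ND, 776 in HSL-null ND, 985 in wild type FD and 709.7 in HSL-null FD, a log2 ratio of -0.47. Lysosomal genes had a median of -0.014 over 49. Ctsc, a cathepsin that activates serine proteases, had 371 in wild type FD and 553 in HSL-null FD, a log2 ratio of 0.57, while Ctsd had 993 in wild type FD and 792 in HSL-null FD, a log2 ratio of -0.33.

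Amino acid breakdown and the urea cycle had a median of 0.026 over 41 genes, which was -0.14 with a common median. Cps1, the first enzyme of the urea cycle, had 2982 in wild type FD and 3581 in HSL-null FD, a log2 ratio of 0.26. Dbt, a subunit of the branched-chain keto acid dehydrogenase, had 188 in wild type ND, 175 in HSL-null ND, 126 in wild type FD and 223 in HSL-null FD, a log2 ratio of 0.82. Ddc, the aromatic amino acid decarboxylase, had 173 in wild type FD and 270.4 in HSL-null FD, a log2 ratio of 0.65, and Hal, histidase, had 459 in wild type FD and 692 in HSL-null FD, a log2 ratio of 0.59. Prodh2, a hydroxyproline dehydrogenase, had 837 in wild type FD and 591 in HSL-null FD, a log2 ratio of -0.50.

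Of 34 solute carriers 21 lay below 0, with a median of -0.093. The lowest was Slc48a1, a heme transporter, with 66.4 in wild type ND, 74.8 in HSL-null ND, 89.4 in wild type FD and 15.5 in HSL-null FD, 5.77-fold lower on FD, where 3 arrays lay within 66.4 to 89.4 and HSL-null FD stood far below. It also stood apart among heme and iron genes, whose median was -0.04. Alad, an early enzyme of heme synthesis, had 789 in wild type ND, 779 in HSL-null ND, 1166 in wild type FD and 779.8 in HSL-null FD, a log2 ratio of -0.58. Alas1, the rate-limiting one, had 1727 in wild type ND, 1174 in HSL-null ND, 1859 in wild type FD and 1499.8 in HSL-null FD, lower on FD (-0.31) and ND (-0.56). Slc38a2, an amino acid transporter, had 162 in wild type FD and 259.6 in HSL-null FD, a log2 ratio of 0.68.

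Cell cycle genes were split evenly, 14 above and 14 below 0 over 29. Plk1, a mitotic kinase, had 40.0 in wild type ND, 29.3 in HSL-null ND, 11.4 in wild type FD and 73.3 in HSL-null FD, tied with Igfbp1 for the highest log2 ratio, 2.68. Its second probe set gave 31.5 and 25.9, a log2 ratio of -0.28, so its probe sets disagree. Mcm4, a replication helicase subunit, had 23.6 in wild type FD and 40.2 in HSL-null FD, a log2 ratio of 0.77, and Tk1, thymidine kinase, had 69.9 in wild type FD and 108 in HSL-null FD, a log2 ratio of 0.63.

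Several of the 20 highest genes belonged to none of the lists. Srsf5, a splicing factor, had 264 in wild type ND, 213 in HSL-null ND, 76.9 in wild type FD and 273 in HSL-null FD, a log2 ratio of 1.83. Emp1, an epithelial membrane protein, had 28.5 in wild type ND, 39.8 in HSL-null ND, 16.6 in wild type FD and 52.4 in HSL-null FD, a log2 ratio of 1.66 (0.97 with the raised floor), and Twist2, a mesenchymal factor, had 71.0 in wild type ND, 62.5 in HSL-null ND, 18.7 in wild type FD and 61.0 in HSL-null FD, a log2 ratio of 1.71. Cdcp1, a surface protein of epithelia, had 52.2 in wild type ND, 33.6 in HSL-null ND, 19.9 in wild type FD and 60.3 in HSL-null FD, a log2 ratio of 1.60. For all 4 wild type FD was the lowest array.

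The rest were dim, with signals of 7.4 to 25.8 in wild type FD. T2 had 33.5 in wild type ND, 16.8 in HSL-null ND, 8.4 in wild type FD and 52.8 in HSL-null FD, Chrna7, a nicotinic receptor subunit, had 36.9 in wild type ND, 55.3 in HSL-null ND, 9.8 in wild type FD and 42.1 in HSL-null FD, and Colq, a collagen-like anchor of acetylcholinesterase, had 36.1 in wild type ND, 41.7 in HSL-null ND, 8.7 in wild type FD and 37.3 in HSL-null FD. Their log2 ratios were 2.65, 2.10 and 2.10. Ccdc186 (7.4 and 31.3), Ddhd1 (9.7 and 39.7), a phospholipase, and Pcp2 (25.8 and 98.7), a Purkinje cell protein, are given with wild type and HSL-null FD signals in brackets and had log2 ratios of 2.08, 2.03 and 1.94. With a floor at the median of all signals, 26.7, the log2 ratios of T2, Chrna7, Colq, Ccdc186 and Ddhd1 were 0.98, 0.66, 0.48, 0.23 and 0.57, and the count of higher genes was 52 in place of 90. Among the lowest 20, Phlda1, a stress-responsive protein, had 339 in wild type ND, 246 in HSL-null ND, 337 in wild type FD and 131 in HSL-null FD, a log2 ratio of -1.37.

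Second probe sets gave the only repeat within an array. Of the 90 higher genes, 11 had a second kept probe set. It pointed the same way in 8, was 2-fold as well in 5 (Saa2, Cxcl1, Ighm, Ptprc and Cldn1) and pointed the other way in 3. These 3 were Plk1 (-0.28), Erdr1 (-0.28 against 1.17) and Cyb561 (-0.25 against 1.39). Of the 46 lower genes, 7 had one, all in the same direction and 4 also 2-fold (Usp2, Fdps, Nsdhl and Tm7sf2). A mean signal under 50 was found for 48 of 90 higher and 16 of 46 lower genes, and 22 of 90 and 6 of 46 were read by probe sets whose suffix marks shared or mixed probes. Cldn1, Erdr1 and Cyb561 were named after their values were seen.

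**Figure D4:**
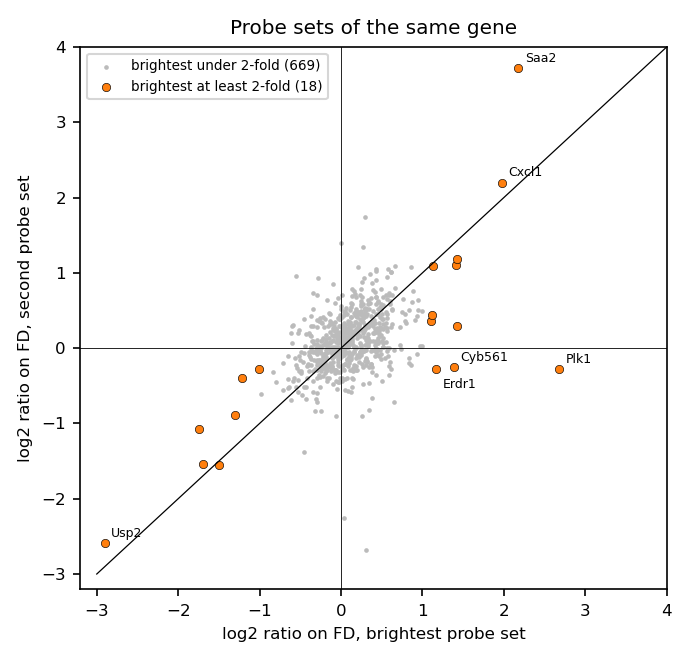
Log2 ratio of HSL-null FD over wild type FD from the brightest (x) and second (y) probe set of 687 genes, with the line of equality. Orange points are the genes at least 2-fold different by the brightest probe set, of which Plk1, Erdr1 and Cyb561 lie above 0 on the x axis and below 0 on the y axis.

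On the separate pair of ND arrays most of these genes were under 2-fold. The 90 genes higher on FD had a median of -0.17 on ND, with 79 under 2-fold, 3 at least 2-fold higher and 8 at least 2-fold lower. The 46 genes lower on FD had a median of -0.10 on ND, with 40 under 2-fold, 6 at least 2-fold lower and 0 higher. On ND, 0.497% of all genes were 2-fold higher and 1.08% 2-fold lower. The 3 higher on both diets were Igfbp1 (1.97 on ND), Klf2 (1.03) and Gpcpd1, with 17.3 in wild type ND, 71.2 in HSL-null ND, 21.9 in wild type FD and 49.0 in HSL-null FD. The 6 lower on both were Cyp2b9, Cyp2b13, Usp2, Hspa1b, Dbp and Tbc1d10a, of which Tbc1d10a had 80.9 in wild type ND, 12.6 in HSL-null ND, 56.1 in wild type FD and 24.1 in HSL-null FD, with -0.40 on FD and -0.17 on ND from its second probe set. Gpcpd1, a glycerophosphocholine phosphodiesterase, and Tbc1d10a were named after their values were seen.

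**Figure D5:**
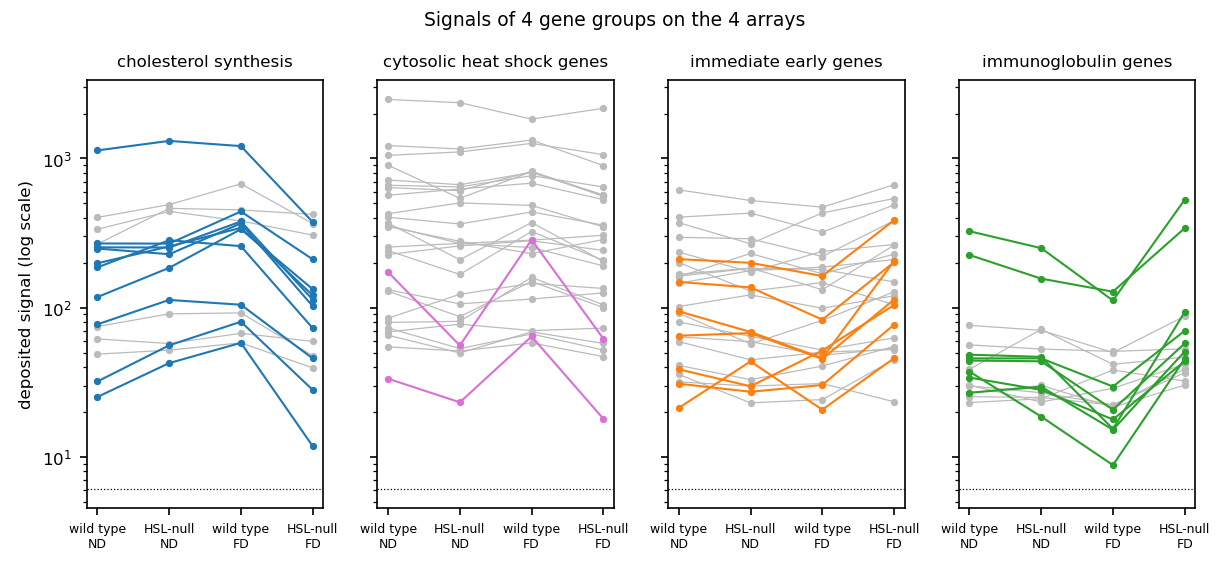
Deposited signals (y, log scale) of 4 gene groups on the 4 arrays (x), with 1 line per gene, coloured where HSL-null FD and wild type FD differ at least 2-fold, and the floor of 6.1 as a dotted line. The coloured cholesterol synthesis genes (10) are lowest in HSL-null FD except Msmo1, and the coloured immunoglobulin genes (8) are all lowest in wild type FD.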

How the data were processed

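There were 4 Affymetrix MG_U74Av2 arrays of mouse liver RNA, 1 pool per group of genotype and diet. Per the labels' protocols, RNA was extracted with phenol and purified on columns. The deposited table gives an intensity, not in log units, for each probe set on each array. MAS5, which summarises the probes of a set, is named per the submitters' processing notes without a version, and the 2% trimmed mean was 100.085 to 100.094 on the 4 arrays. Other deposited files hold run settings only (lots and scan day), and no expression value. Depth has no meaning for arrays, and their number limits the precision.

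The table has 12488 probe sets, 66 of them controls. In the platform annotation 10833 had 1 gene, 396 several and 1193 none, and the last 2 kinds were not named. The RefSeq gene table (GRCm38.p6) held the genes of 10817, and 0 symbols changed. Signals were raised to 6.1 (25th percentile) and taken to log2. Probe sets with a mean of at least 26.9 (the median) were kept, 5615 in all, and the brightest stood for its gene. A gene counted as different at 2-fold, a log2 ratio of 1 in size, and a fold from the floor is "at least". There was no test. The script was tested on simulated data. Python 3.11.15, numpy 2.4.6, pandas 2.3.3, matplotlib 3.10.9, R 4.3.3 and limma 3.58.1 were used, limma for quantile and cyclic loess scaling.

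Genes were described in 50 lists, of which 6 symbols matched no gene. The named genes are Lipe, the 20 highest and 20 lowest above the floor, up to 5 floor-bounded genes each way, and from each list the 5 largest by size and a central gene. The members and lists were chosen with earlier results of these data known. The alternatives were other scalings, floors, filters, probe set rules and fold thresholds.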

Additional observations from a re-analysis of the deposited data

Results flagged for a closer look

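Genotype ratios of opposite direction on the 2 diets were picked out where both passed 2-fold, or, for a list, where the medians had opposite signs and were at least as large as the probe-set disagreement. Each ratio rests on 1 pair of arrays, and the FD and ND pairs share none. The difference between diets was not tested for any of them.

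Among genes, Cxcl1 had a log2 ratio of 1.98 on FD and -1.80 on ND, and its second probe set gave 2.20 and -1.60. Il1b had 1.47 and -1.03. Ptpn22, a phosphatase of lymphocytes, had 1.31 and -1.35. Itgb2 had 1.01 and -1.38, and Cytip, a leukocyte adhesion regulator, had 1.05 and -1.26. Igh-VS107 had 2.37 and -1.00. Chrne, a nicotinic receptor subunit, had 1.26 and -1.10, and Krtap3-1, a hair keratin-associated protein, had 1.01 and -1.70. All 8 were higher on FD and lower on ND. Their signals went 61.4 and 24.1 on ND and 19.5 and 48.4 on FD for Ptpn22 in wild type and HSL-null liver, 127 and 53.2 and 42.1 and 87.1 for Cytip, 55.8 and 26.0 and 35.1 and 84.1 for Chrne, and 73.2 and 22.5 and 27.1 and 54.5 for Krtap3-1. In these 4, as in Cxcl1, Il1b and Itgb2, wild type ND and HSL-null FD were above HSL-null ND and wild type FD.

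Among lists, cholesterol synthesis had a median of -1.26 on FD and 0.33 on ND. Lymphocyte and antigen-presenting cell markers had a median of 0.45 on FD and -0.48 on ND over 10 genes. Over the alternatives the FD median was as low as 0.15. The 10 include Jchain (2.60 on FD) and Ighm (1.41), also counted as immunoglobulin genes, while Ms4a1 (-0.50) and Ccl5 (-1.00) lay below 0 on FD.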

How the results depend on the processing

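Each result was recomputed under 10 alternatives, and the counts of genes also at other fold thresholds. The deposited scale gave 90 higher and 46 lower genes. Counts were 63 and 59 after quantile normalization, 57 and 60 after cyclic loess, and 51 and 72 with arrays at a common median. They were 52 and 37 with the floor at the median of all signals and 35 and 28 with a pseudocount of 16. Without the filter they were 277 and 142 of 8251 genes, and with a filter at the 75th percentile 20 and 24 of 2519. At 1.5-fold they were 443 and 182 and at 3-fold 20 and 15. Of the 90 higher genes 62 were also 2-fold after quantile normalization, 55 after loess and 51 with a common median, and of the 46 lower genes 45, 45 and 46. Filtering on the FD arrays, averaging probe sets, leaving out suffix probe sets or leaving out marker genes of other cell types kept both counts within 1.5 times. The median of the neutrophil markers, 0.88 over 2 kept genes, was 0.48 without the filter and 1.43 with the stricter one. The other 498 of 500 list medians moved by less than the probe-set disagreement, as did 2421 of 2497 values of named genes, and 0 called values reversed. Values under 2-fold could change sign, as for P4hb (0.54 to -0.13) and Laptm5 (0.60 to -0.18) among others. Ctse, a cathepsin, had 0.75 and 0.48 from 2 probe sets. Another gave -3.98, from 339 in wild type FD and 21.4 in HSL-null FD, so no direction is given for Ctse. No paired analysis was possible because each group is 1 array and the labels share no replicate numbers. Leaving out a replicate was not possible either. Signal near the floor limits the dim genes.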
